A study of Mus musculus with 4 samples.

Results

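The comparison described here sets the induced library labelled Kdm4b knockout (KO) against the induced library labelled wild type (WT). Both were made from primary mesenchymal stem cells of mouse bone marrow, the adherent stromal cells of that tissue, after 4 days of osteogenic induction, which pushes them to become bone-forming osteoblasts. Another pair, labelled KO and WT, stayed in control medium for 4 days. In what follows, KO OI and WT OI name the induced libraries and KO control and WT control the others, always by their labels. Each of these 4 groups held 1 library of polyadenylated RNA, so nothing below has a replicate, a p-value or a standard error. The labels give no sex, age, strain, deletion driver or number of animals for any group. Genes were taken from the deposited table of the induced pair when they lay on an autosome and had at least 1 FPKM (fragments per kilobase, relative to all mapped fragments) in either induced library, which left 11371 of 23036 entries. Differences are log2 ratios of FPKM + 1, KO to WT, so that ratios of weakly expressed genes are drawn towards 0. A gene is called higher or lower in KO OI when this ratio is at least 1 in size.

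KDM4B is a demethylase of the histone H3 lysine 9 mark, a modification of silent chromatin. Marrow stromal cells can become osteoblasts or adipocytes. RUNX2 and SP7 (osterix) direct the bone fate, with WNT and BMP signals acting upstream, and PPARG directs the fat fate. Osteoblasts secrete type I collagen and proteins such as bone sialoprotein, and glucocorticoids are a common part of osteogenic media. Cultures of adherent marrow cells also hold macrophages, which stick to plastic as stromal cells do.

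Kdm4b itself was at 4.26 FPKM in KO OI and 5.83 FPKM in WT OI, a log2 ratio of -0.38, and at 4.30 FPKM in KO control and 4.603 FPKM in WT control. This gene-level value does not separate the genotype labels, and it does not resolve single exons, so every direction below is between libraries as labelled. Its relatives Kdm4a, at 15.1 FPKM in KO OI and 17.0 FPKM in WT OI, and Kdm4c, at 5.12 FPKM in KO OI and 7.84 FPKM in WT OI, were within the size rule as well. The glucocorticoid target Fkbp5 was at 79.3 FPKM in KO OI and 118 FPKM in WT OI, against 3.94 FPKM in KO control and 4.10 FPKM in WT control, so both induced libraries stood apart from the control pair in this gene. The sex-linked genes differed within the induced pair: Xist was at 21.6 FPKM in KO OI and 0.0621 FPKM in WT OI, and the Y-linked Ddx3y at 0.00865 FPKM in KO OI and 28.7 FPKM in WT OI. Xist was at 30.5 FPKM in KO control and 24.0 FPKM in WT control, and Ddx3y was at or below 0.0208 FPKM in those libraries. WT OI is thus the one library with Y-linked RNA, and genotype label and sex cannot be told apart in this comparison. Genes on X and Y were set aside, with 9 X-linked genes higher and 37 lower among 383 measured. Macrophage RNA was present throughout. The summed level of the 9 macrophage markers was 15869.6 FPKM in KO OI and 12318 FPKM in WT OI, and that of the 9 stromal markers was 1072 and 2161 FPKM in the same order of libraries. Col1a1 and Col1a2 carried that difference in the sum. Without them the other 7 markers summed to 235 FPKM in KO OI and 252 FPKM in WT OI. Cxcl12 alone was at 123 FPKM in KO OI and 89.6 FPKM in WT OI. Those 7 were split, with Thy1 (2.43), Eng (1.91) and Cxcl12 (0.46) on the higher side in KO OI. Pdgfra (-0.37), Pdgfrb (-1.33), Prrx1 (-0.92) and Nt5e (-2.64) were on the lower side. The defining markers of B cells, mast cells and T cells were each below 1 FPKM in both induced libraries, as were the skeletal muscle markers other than Acta1 and the neutrophil markers other than S100a8. In bulk RNA of this kind, fewer cells of a type and less RNA per cell cannot be told apart.

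Under induction, 556 autosomal genes were higher in KO OI and 559 were lower, which is 4.89% and 4.92% of the genes measured, or 9.81% together. The median log2 ratio over all of them was -0.02, and 7018 genes lay within 0.5 of 0. In the control pair, which shares no library with the induced pair, 74 genes were higher and 97 lower, or 0.655% and 0.858% of 11305 and 1.51% together. Past a log2 ratio of 2 in size there were 74 higher and 64 lower genes under induction. The 2 directions were not spread evenly over expression levels. Among the 935 genes that reached 100 FPKM in one of the induced libraries, 79 were higher and 30 lower, whereas 182 were higher and 257 lower among the 4326 genes between 5 and 20 FPKM.

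**Figure D1:**
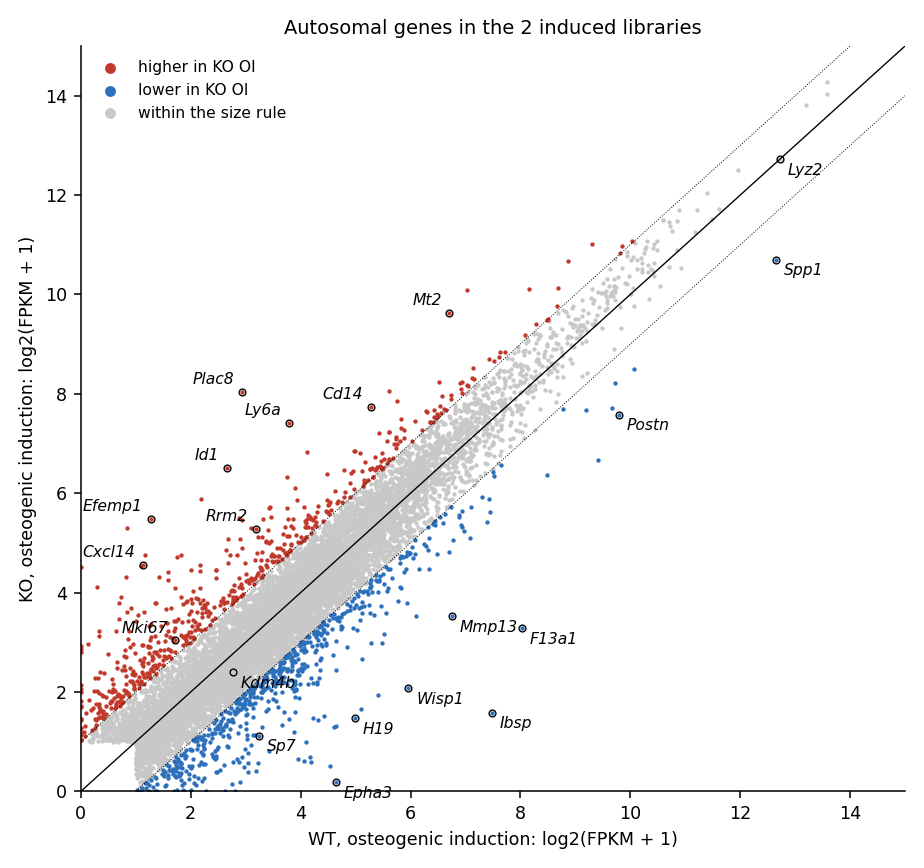
Each point is an autosomal gene with at least 1 FPKM in either induced library, placed by its log2(FPKM + 1) in WT OI (x axis) and KO OI (y axis). Dotted lines mark the size rule of 1 on the log2 scale, red points are higher in KO OI (556 genes) and blue points lower (559 genes), and circles mark named genes, with Ibsp, at 1.98 FPKM in KO OI and 177 FPKM in WT OI, farthest from the diagonal.

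The genes at the high end came from several functions. Plac8, a small cysteine-rich protein of myeloid and progenitor cells, had the highest ratio of the named genes, at 263 FPKM in KO OI and 6.61 FPKM in WT OI, a log2 ratio of 5.12. The control libraries held 99.0 FPKM in KO control and 108 FPKM in WT control, so the low value was that of WT OI. Mfap5, a microfibril protein, was at 38.4 FPKM in KO OI and 0.786 FPKM in WT OI, and Efemp1, the matrix protein fibulin-3, at 43.5 FPKM in KO OI and 1.41 FPKM in WT OI. Gdpd3, a lysophospholipase D, was at 16.3 FPKM in KO OI and 0.218 FPKM in WT OI. In these 3 genes as well, KO OI lay nearer to the control libraries than WT OI did, and Gdpd3 for instance was at 16.0 FPKM in KO control and 18.98 FPKM in WT control. Other genes with high ratios were the phospholipase gene Pla1a (3.71), the adhesion gene Cadm4 (3.16), Ccdc109b (2.96), which encodes a subunit of the mitochondrial calcium channel, the myelin lipid-binding protein Pmp2 (2.93), the C-type lectin Cd207 (2.89) and Sap25 (3.45), a partner of the SIN3A repressor. Atp6v0c-ps2 (3.06) is a near copy of Atp6v0c, which had the opposite ratio (-2.75), so the division of reads between them is uncertain.

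At the low end, bone sialoprotein, Ibsp, came first, and F13a1, the A subunit of coagulation factor XIII, second, at 8.76 FPKM in KO OI and 259.8 FPKM in WT OI and at 1.052 FPKM in KO control and 0.658 FPKM in WT control. Cd38 and Bst1, related ectoenzymes that consume NAD, were both lower. Cd38 was at 0.418 FPKM in KO OI and 22.1 FPKM in WT OI, a log2 ratio of -4.02. Bst1 was at 0.319 FPKM in KO OI and 8.08 FPKM in WT OI, a ratio of -2.78. Each was below 1 FPKM in both control libraries, so these RNAs were high in WT OI and low in the other 3. The same held for Htr1b, a serotonin receptor, at 0.616 FPKM in KO OI and 17.1 FPKM in WT OI, and Epha3, an ephrin receptor, at 0.137 FPKM in KO OI and 23.9 FPKM in WT OI. Clec11a, the secreted osteogenic factor osteolectin, was at 0.996 FPKM in KO OI and 16.0 FPKM in WT OI, Fap, a surface protease of activated fibroblasts, at 0.570 FPKM in KO OI and 14.5 FPKM in WT OI, and Edil3, an integrin-binding matrix protein, at 2.82 FPKM in KO OI and 41.3 FPKM in WT OI. Asb4 (-3.598), the decoy chemokine receptor Ackr4 (-3.44), Nrep (-3.44), Cd200 (-3.33), the receptor phosphatase Ptprd (-2.89) and the small nucleolar host RNA Snhg9 (-2.81) followed.

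The control pair was used to see which induced library stood apart for each gene. Of the 556 higher genes, WT OI was at least 1 log2 unit below each of the other 3 libraries in 324, or 58.3%, while KO OI was at least 1 unit above each of the others in 13. Of the 559 lower genes, WT OI was above all of the other 3 by that margin in 284, or 50.8%, and KO OI was below all of them in 7. Set against WT control instead of WT OI, KO OI had 113 higher and 95 lower genes. That comparison changes medium together with label, so it asks something else, and it is given because WT OI differs from the rest in its sex-linked genes. Of the genes called against WT OI, 38 of the higher (6.83%) and 15 of the lower (2.68%) were also called the same way against WT control. There 24 of the higher and 19 of the lower had the opposite call. Over all genes, the 113 higher and 95 lower were out of 11236 measured, or 1.85% together. Both ratios contain KO OI, so these overlaps are not independent.

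A total of 46 gene lists covering bone, matrix, signalling, blood, cell cycle and metabolic functions held 1019 measured autosomal genes, of which 147 were higher and 125 lower. Over all genes, 556 and 559 of 11371 were. The lists were chosen with earlier results of these data known, so their larger shares are not independent of those results. Among the lists with at least 10 measured genes, the largest shares of lower genes were in bone matrix, imprinted, Wnt signalling, small proteoglycan and matricellular, osteoblast factor and adhesion genes. The largest shares of higher genes were in the retinoid, DNA replication, mitosis, BMP target, chemokine and cholesterol lists.

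**Figure D2:**
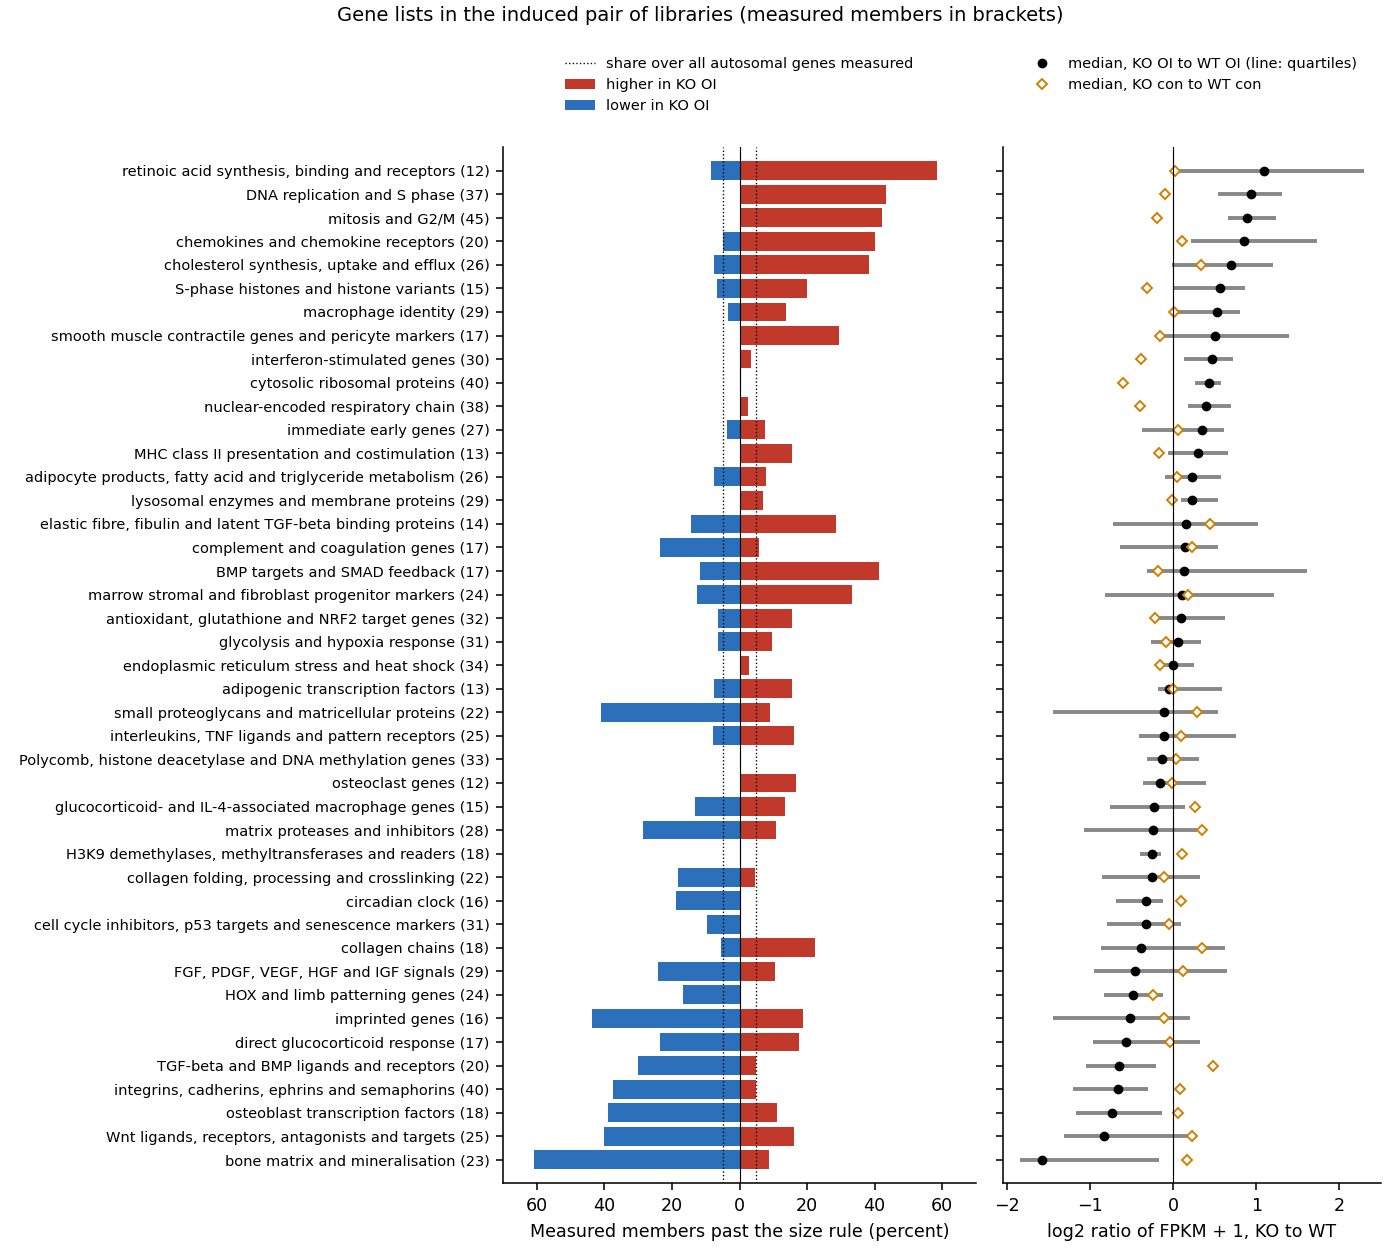
Left, the percent of measured members, for each list with at least 10 of them, that were higher (red, to the right) or lower (blue, to the left) in KO OI, with dotted lines at 4.89% and 4.92%, the shares over all autosomal genes. Right, the median log2 ratio of KO OI to WT OI (black, with a line spanning the quartiles) and that of KO control to WT control (open diamonds) for the same lists, where bone matrix has the lowest induced median at -1.58.

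Of 23 measured bone matrix and mineralisation genes, 14 were lower in KO OI and 2 higher, with a median log2 ratio of -1.58 beside -0.02 over all genes. Another 5 members did not reach 1 FPKM. Ibsp binds hydroxyapatite and marks matrix about to mineralise. It was at 1.98 FPKM in KO OI and 177 FPKM in WT OI, a log2 ratio of -5.90, and at 1.11 FPKM in KO control and 1.74 FPKM in WT control, so the level in KO OI was near that of the unstimulated cells. The matrix protein periostin, Postn, was at 190.2 FPKM in KO OI and 883 FPKM in WT OI and at 131 FPKM in KO control and 75.8 FPKM in WT control. Here KO OI lay above both control libraries but far below WT OI. Osteopontin, Spp1, was at 1658 FPKM in KO OI and 6442 FPKM in WT OI. Its control levels were 3210 FPKM in KO control and 3152 FPKM in WT control, so KO OI lay below both control libraries. Col1a2, one of the type I collagen chains, was at 359 FPKM in KO OI and 1073 FPKM in WT OI. Dmp1, a protein of osteocytes, was at 0.0130 FPKM in KO OI and 2.99 FPKM in WT OI, and the small proteoglycan osteomodulin, Omd, at 1.07 FPKM in KO OI and 7.12 FPKM in WT OI. These are secreted matrix proteins, and WT OI held the higher level of each. The genes that set pyrophosphate, an inhibitor of mineral growth, were lower too, with the pyrophosphate-forming enzyme Enpp1 at 3.13 FPKM in KO OI and 14.1 FPKM in WT OI and the transporter Ank at 36.8 FPKM in KO OI and 125 FPKM in WT OI. Alpl, the phosphatase that removes pyrophosphate, was at 4.58 FPKM in KO OI and 15.7 FPKM in WT OI. Like Spp1, Alpl was lower in KO OI than in KO control (8.33 FPKM) and WT control (8.90 FPKM). Pth1r, the receptor for parathyroid hormone, was at 3.48 FPKM in KO OI and 14.9 FPKM in WT OI, and Tnfrsf11b, the RANKL decoy osteoprotegerin, at 4.36 FPKM in KO OI and 15.3 FPKM in WT OI. Enzymes of both directions of pyrophosphate turnover were thus lower in KO OI. The osteoblast cadherin Cdh11 (-1.71) was lower, although in control medium its ratio was 1.17. Kazald1 (1.89), an IGF-binding-related matrix protein, and Bglap2, one of the osteocalcin genes, were higher. Bglap2 was at 1.71 FPKM in KO OI and 0.216 FPKM in WT OI and at 1.59 FPKM in KO control and 2.499 FPKM in WT control. The abundant Col1a1 (-0.81), the partner chain of Col1a2, Sparc (-0.50) and Mgp (0.66) were within the rule. Against WT control, 0 of 22 genes were lower and 4 higher.

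The start region of Ibsp is shown because this gene has the lowest ratio of all measured autosomal genes. It runs from 250 bases before the RefSeq start to 30 bases after it, on the plus strand at chr5:104299037-104299316 (GRCm38.p6, a later build than the mm9 of the FPKM values). Capitals mark a CCAAT box, read here on the opposite strand.
Ibsp: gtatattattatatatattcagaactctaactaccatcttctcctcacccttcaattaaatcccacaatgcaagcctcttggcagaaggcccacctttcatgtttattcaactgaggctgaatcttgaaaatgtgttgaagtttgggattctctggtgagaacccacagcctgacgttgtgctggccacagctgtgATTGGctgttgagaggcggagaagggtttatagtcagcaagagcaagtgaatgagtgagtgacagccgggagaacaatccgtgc
CCAAT on either strand was present in 42.4% of 8692 measured autosomal genes with a RefSeq start region of 300 bases, and in 8 of 16 bone matrix genes.

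The transcription factors of osteoblasts went largely the same way. Of 18 measured, 7 were lower and 2 higher, with a median of -0.74. Sp7, which osteoblasts need downstream of RUNX2, was at 1.18 FPKM in KO OI and 8.46 FPKM in WT OI, a log2 ratio of -2.12, and at 3.40 FPKM in KO control and 2.11 FPKM in WT control. Runx2 was at 3.11 FPKM in KO OI and 7.10 FPKM in WT OI, a ratio of -0.98, just inside the rule. The homeobox genes Dlx5, at 3.58 FPKM in KO OI and 11.2 FPKM in WT OI, and Dlx6, at 0.124 FPKM in KO OI and 3.18 FPKM in WT OI, which lie next to each other, were both lower. Zfp521 (-1.12) and Foxc1 (-1.098) were also lower, while Msx2 (1.32) was higher. The related Twist1 and Twist2, both repressors of RUNX2, went opposite ways. Twist1 was at 6.95 FPKM in KO OI and 20.96 FPKM in WT OI, and Twist2 at 11.3 FPKM in KO OI and 1.21 FPKM in WT OI. When WT control stood in for WT OI, 0 of 14 factors were lower, and the highest levels of Sp7, Dlx5 and Dlx6 were all in WT OI.

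**Figure D3:**
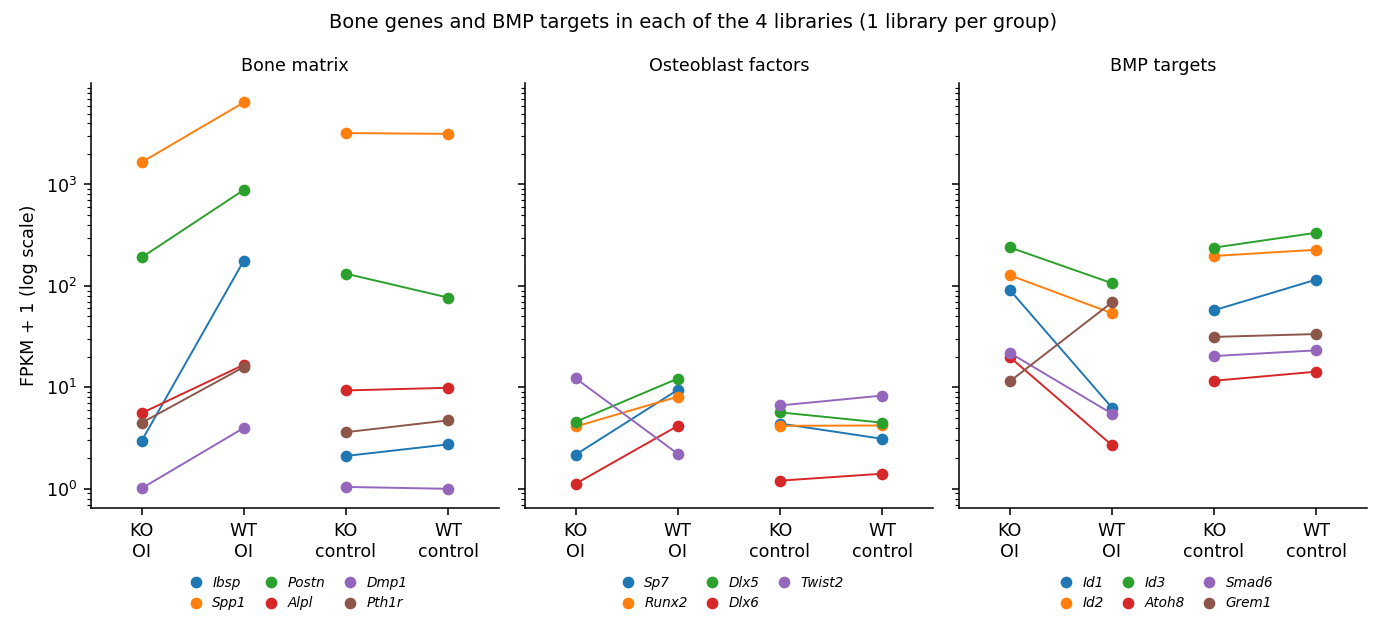
FPKM + 1 on a log axis for 17 genes in the 4 libraries, each point 1 library and each line joining KO to WT within a medium. The bone matrix genes and most osteoblast factors have their highest point in WT OI (Ibsp at 177 FPKM), and the BMP targets other than Grem1 have their lowest point there (Id1 at 5.32 FPKM).

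Of 17 BMP targets and feedback genes, 7 were higher and 2 lower, but the list as a whole was split, with 9 ratios above 0, 8 below it and a median of 0.13. Id1 blocks helix-loop-helix transcription factors. It was at 90.2 FPKM in KO OI and 5.32 FPKM in WT OI and at 56.5 FPKM in KO control and 114 FPKM in WT control. The other Id genes had the same direction, with log2 ratios of 1.61 for Id4, 1.24 for Id2 and 1.17 for Id3. Atoh8 (2.88) and Dlx2 (2.02), both transcription factors, were higher too. Smad6, an intracellular brake on BMP receptors, was at 20.9 FPKM in KO OI and 4.50 FPKM in WT OI, and its relative Smad7 (0.63) was within the rule. The secreted antagonist Grem1 was at 10.5 FPKM in KO OI and 67.7 FPKM in WT OI, and Smurf2, a ubiquitin ligase for receptors and SMADs, at 15.9 FPKM in KO OI and 37.6 FPKM in WT OI. Of 20 TGF-beta and BMP ligands and receptors, 6 were lower and 1 higher, with a median of -0.66, and with the trend on transcript length removed 4 were lower and the median was -0.34. Gdf6, a BMP-family ligand of joints and sutures, was at 0.113 FPKM in KO OI and 5.71 FPKM in WT OI, and below 1 FPKM in both control libraries. The receptors Bmpr1a, at 6.64 FPKM in KO OI and 20.04 FPKM in WT OI, and Bmpr2, at 7.31 FPKM in KO OI and 18.8 FPKM in WT OI, were lower, and so were the ligands Bmp2 (-1.02), Bmp4 (-1.13) and Bmp5 (-1.17). The higher member was Eng, the co-receptor endoglin, at 33.8 FPKM in KO OI and 8.29 FPKM in WT OI. Measured against WT control, 1 of 18 targets was higher and 0 of 18 ligands and receptors were lower.

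Among 25 Wnt pathway genes, 10 were lower and 4 higher, with a median of -0.84. With the trend on transcript length removed, 9 were lower and the median was -0.39. With 5 FPKM added instead of 1, or with a size rule of 1.5, 4 were lower. Against WT control, 4 of 25 were lower. The split between higher and lower genes followed role only in part. The ligands Wnt5a, at 2.65 FPKM in KO OI and 10.2 FPKM in WT OI, and Wnt9a, at 0.645 FPKM in KO OI and 2.79 FPKM in WT OI, were lower. So were the receptors Fzd1 (-1.64), Fzd5 (-1.32) and Fzd8 (-1.33), the WNT5A receptor Ror2 (-1.29), Lgr5 (-2.27), and Rspo2 (-1.29), which amplifies Wnt signals through LGR receptors. Ligands and receptors that were called were all lower in KO OI. The 4 higher genes were secreted antagonists, namely Sfrp1, at 11.8 FPKM in KO OI and 1.93 FPKM in WT OI, Wif1, at 6.17 FPKM in KO OI and 0.746 FPKM in WT OI, Frzb (1.504) and Sfrp4 (1.16). Sfrp2 and Dkk3 belong to antagonist families too and were lower. Sfrp2 was at 1.47 FPKM in KO OI and 23.3 FPKM in WT OI, and Dkk3 at 51.7 FPKM in KO OI and 137 FPKM in WT OI. Axin2, a common readout of the canonical pathway, did not reach 1 FPKM in either induced library.

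Matrix genes went in both directions. Of 18 collagen chains other than type I, 4 were higher and 1 lower. Most of their ratios were nevertheless below 0, with 11 below, 7 above and a median of -0.39. The basement membrane chains Col4a1, at 149.6 FPKM in KO OI and 47.5 FPKM in WT OI, and Col4a2, at 111 FPKM in KO OI and 33.0 FPKM in WT OI, share a promoter and were both higher. Col15a1 (1.43), also of basement membranes, and Col2a1 (3.496), the main collagen of cartilage, were higher. The one lower chain was Col11a1, a fibril nucleator, at 1.85 FPKM in KO OI and 20.4 FPKM in WT OI. The fibrillar chains Col3a1 (-0.14), Col5a1 (-0.99) and Col5a2 (-0.78) were within the rule. Of 22 genes for collagen folding and crosslinking, 4 were lower and 1 higher. Lysyl oxidase, Lox, which starts collagen crosslinks, was at 204 FPKM in KO OI and 582 FPKM in WT OI, Loxl3 at 39.8 FPKM in KO OI and 119.6 FPKM in WT OI, and the lysyl hydroxylase Plod2 at 12.1 FPKM in KO OI and 33.1 FPKM in WT OI. The crosslinking transglutaminase Tgm2 was at 57.4 FPKM in KO OI and 21.3 FPKM in WT OI.

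Among 22 small proteoglycans and matricellular proteins, 9 were lower and 2 higher. The list as a whole was split, with 10 ratios above 0, 12 below and a median of -0.11. With the trend on transcript length removed, 5 of 17 were lower and 3 higher. Against WT control, 0 of 22 were lower and 3 higher. The thrombospondins Thbs1, at 208 FPKM in KO OI and 814 FPKM in WT OI, and Thbs2 (-1.29), the tenascins Tnn and Tnc, and fibronectin, Fn1, at 298 FPKM in KO OI and 846 FPKM in WT OI, were lower. Wisp1 was at 3.21 FPKM in KO OI and 61.3 FPKM in WT OI and its relative Wisp2 at 80.7 FPKM in KO OI and 183 FPKM in WT OI, whereas the related Ctgf (0.19) and Cyr61 (0.42) were within the rule. The leucine-rich proteoglycans went both ways. Aspn, at 5.44 FPKM in KO OI and 19.8 FPKM in WT OI, and Fmod (-1.55) were lower, and Dcn, at 12.0 FPKM in KO OI and 2.13 FPKM in WT OI, and Prelp (1.74) were higher. Of 14 elastic fibre genes, 4 were higher, with Ltbp2, at 26.0 FPKM in KO OI and 2.54 FPKM in WT OI, after Mfap5 and Efemp1, and 2 were lower, Ltbp1, at 6.52 FPKM in KO OI and 27.6 FPKM in WT OI, and Fbln5 (-1.29). LTBP1 stores latent TGF-beta in the matrix, and LTBP2 does not bind it.

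Matrix proteases were more often lower, with 8 lower and 3 higher among 28 proteases and inhibitors. Mmp13, a collagenase of bone and cartilage, was at 10.5 FPKM in KO OI and 107 FPKM in WT OI and at 28.9 FPKM in KO control and 16.7 FPKM in WT control. Mmp2, a gelatinase of stromal cells, was at 41.5 FPKM in KO OI and 168 FPKM in WT OI, and Mmp10 at 0.408 FPKM in KO OI and 6.78 FPKM in WT OI. The aggrecan-cleaving Adamts4 (-1.22), and Adamts1 (-1.21), Adamts12 (-1.36) and Adam12 (-1.84) had the same direction. Mmp3, at 3.07 FPKM in KO OI and 0.180 FPKM in WT OI, Adam8, a leukocyte protease, at 313 FPKM in KO OI and 141 FPKM in WT OI, and the urokinase receptor Plaur (1.09) were higher. The inhibitor gene Timp2 (-0.78) was within the rule.

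Adhesion and guidance molecules were mainly lower, 15 of 40 against 2 higher, with a median of -0.67, or -0.43 with the trend on transcript length removed. The collagen-binding integrin subunits Itga11, at 7.95 FPKM in KO OI and 44.5 FPKM in WT OI, and Itga10, at 0.481 FPKM in KO OI and 8.31 FPKM in WT OI, were lower, and so was Itgav (-1.20), part of receptors for vitronectin and latent TGF-beta. Cdh13, the anchored T-cadherin, was at 1.79 FPKM in KO OI and 17.8 FPKM in WT OI, the neural and stromal adhesion molecule Ncam1 at 3.52 FPKM in KO OI and 17.7 FPKM in WT OI, and N-cadherin, Cdh2, at 15.2 FPKM in KO OI and 36.1 FPKM in WT OI. These are surface proteins of mesenchymal cells, and their highest level among the 4 libraries was in WT OI. Epha2 (-2.01) and the semaphorin genes Sema7a, at 12.9 FPKM in KO OI and 59.9 FPKM in WT OI, Sema3d (-1.72) and Sema5a (-1.60) were lower, while Sema3b (1.16) and the semaphorin receptor gene Plxnd1, at 45.2 FPKM in KO OI and 18.3 FPKM in WT OI, were higher. The most abundant subunit, Itgb1 (-0.69), was within the rule. Set beside WT control instead, 2 of 34 were lower.

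Markers of stromal and fibroblast progenitors were higher in 8 and lower in 3 of 24 genes measured, out of 30 listed. As a whole the list was evenly split, with 12 ratios above 0, 12 below and a median of 0.11. Against WT control, 0 of 22 were higher and 3 lower. Ly6a (Sca-1), at 170.5 FPKM in KO OI and 12.9 FPKM in WT OI, and its neighbour Ly6c1, at 20.3 FPKM in KO OI and 2.004 FPKM in WT OI, were higher, as were Cd34, at 7.68 FPKM in KO OI and 0.262 FPKM in WT OI, and Thy1, at 9.75 FPKM in KO OI and 1.001 FPKM in WT OI. Ly6a was at 163 FPKM in KO control and 245 FPKM in WT control, so WT OI was the low library. Eng, Ngfr (1.61), Mcam (1.08) and Nes (1.04) were higher as well. Nt5e (CD73), at 0.312 FPKM in KO OI and 7.18 FPKM in WT OI, and the adhesion receptor Vcam1, at 13.2 FPKM in KO OI and 53.5 FPKM in WT OI, were lower. The niche chemokine Cxcl12 (0.46) and the limb mesenchyme factor Prrx1 (-0.92) were within the rule.

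Growth factor genes were lower in 7 and higher in 3 of 29, with a median of -0.46. With the trend on transcript length removed, the counts stayed at 7 and 3, but the median was 0.01. The FGF receptors Fgfr1, at 21.2 FPKM in KO OI and 79.5 FPKM in WT OI, and Fgfr2, at 3.25 FPKM in KO OI and 13.3 FPKM in WT OI, and the PDGF receptor Pdgfrb, at 29.8 FPKM in KO OI and 76.3 FPKM in WT OI, were lower, along with the ligands Pdgfc (-1.42) and Pdgfd (-1.24). Pdgfb, at 26.9 FPKM in KO OI and 8.21 FPKM in WT OI, and the neurotrophin Bdnf, at 4.78 FPKM in KO OI and 0.721 FPKM in WT OI, were higher. Receptor tyrosine kinases that were called on this list were lower in KO OI. Of 24 HOX and limb patterning genes, 4 were lower, Shox2, at 6.67 FPKM in KO OI and 21.1 FPKM in WT OI, Tbx15 (-1.21), Hoxc6 (-1.20) and Meis2 (-1.16), and 0 were higher. Of 17 smooth muscle and pericyte genes, 5 were higher and 0 lower. Mustn1 was at 26.0 FPKM in KO OI and 1.26 FPKM in WT OI, the YAP target Ankrd1 at 8.38 FPKM in KO OI and 0.552 FPKM in WT OI, Cnn1 (calponin) at 38.7 FPKM in KO OI and 12.2 FPKM in WT OI, and Actg2 (gamma smooth muscle actin) at 154 FPKM in KO OI and 57.9 FPKM in WT OI. The abundant Acta2 (0.31) and Tagln (0.91) were within the rule. Of 22 cartilage genes 5 were measured, of which 2 were higher, Col2a1 and Col10a1 (1.42), and 0 lower, with Acan below 0.01 FPKM in both induced libraries.

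Imprinted genes were lower in 7 and higher in 3 of 16 measured. H19, at 1.76 FPKM in KO OI and 30.7 FPKM in WT OI, and Igf2, at 1.40 FPKM in KO OI and 7.06 FPKM in WT OI, which neighbour each other and are expressed from opposite parental copies, were both lower. Cdkn1c, an inhibitor of cyclin-dependent kinases, was at 2.03 FPKM in KO OI and 13.9 FPKM in WT OI, and Grb10, an adaptor that dampens insulin signals, at 11.1 FPKM in KO OI and 45.9 FPKM in WT OI. In the Dlk1-Dio3 cluster, Meg3, Rian and Dio3 had the other direction, at low levels. Meg3 was at 4.27 FPKM in KO OI and 0.280 FPKM in WT OI, and Rian at 2.52 FPKM in KO OI and 0.467 FPKM in WT OI. Dio3 was at 4.42 FPKM in KO OI and 0.755 FPKM in WT OI. Dlk1 and Mirg of that cluster did not reach 1 FPKM in either induced library. Mest (-1.35), Peg10 (-1.31) and Plagl1 (-1.04) were lower. Ndufa4l2, first entered in this list by mistake, was removed after its value (2.21) had been seen because it is not an imprinted gene. The list median was -0.52 without it and -0.23 with it, over 17 genes of which 4 were higher. With the trend on transcript length removed it was -0.21 over the 16. Growth-limiting and growth-promoting imprinted genes were thus both among the lower ones.

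Cell cycle genes were higher as a group. Of 45 mitosis genes, 19 were higher and 0 lower, and all 45 had ratios above 0, with a median of 0.89. Of 37 replication genes, 16 were higher, 0 lower and 36 above 0, with a median of 0.93. Birc5 (survivin), which acts in chromosome segregation, was at 26.0 FPKM in KO OI and 6.14 FPKM in WT OI, and the mitotic kinase Plk1 at 10.1 FPKM in KO OI and 2.39 FPKM in WT OI. Rrm2, the regulated subunit of ribonucleotide reductase, was at 37.7 FPKM in KO OI and 8.08 FPKM in WT OI, the thymidine kinase Tk1 at 20.9 FPKM in KO OI and 4.51 FPKM in WT OI, and the helicase subunit Mcm5 at 18.7 FPKM in KO OI and 4.53 FPKM in WT OI. The kinesin Kif23 (1.46), the condensin subunit Ncapd2 (1.48) and the centromere histone Cenpa (1.43), and for replication Uhrf1 (1.71), Mcm3 (1.49) and the ligase Lig1 (1.48), had the same direction. KO OI was close to the control libraries in these genes, with Rrm2 at 31.6 FPKM in KO control and 46.4 FPKM in WT control and Mcm5 at 24.3 FPKM in KO control and 20.04 FPKM in WT control. Rrm1 (-0.01), the constant partner of Rrm2, and the checkpoint gene Bub3 (0.08) were nearly equal. Among 15 histone and chromatin genes of proliferating cells, Lmnb1, at 11.4 FPKM in KO OI and 3.03 FPKM in WT OI, Hmgb2 (1.17) and Hmgn2 (1.049) were higher, and Hmga2, at 16.1 FPKM in KO OI and 55.4 FPKM in WT OI, was lower. Of 31 cell cycle inhibitors, p53 targets and senescence markers, 3 were lower, Cdkn1c, Trp53inp1 (-1.66) and Zmat3 (-1.06), and 0 higher. Cdkn1a (p21), at 152 FPKM in KO OI and 249 FPKM in WT OI, and Cdkn2a (p16 and ARF), at 203 FPKM in KO OI and 132 FPKM in WT OI, were within the rule and differed in sign. Against WT control, 0 of 46 mitosis genes and 0 of 37 replication genes were higher, and the list medians were -0.33 and -0.21.

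Mitotic promoters commonly carry CCAAT boxes and, near the start, the element TTTGAA, a form of the cell cycle homology region. Start regions of 4 higher mitosis genes are shown. Birc5 has the largest ratio of the list and holds neither motif. Ube2c, Cdc20 and Ccnb2 were picked after the search because each holds both, so they stand for the motifs and not for the list. Each region runs from 250 bases before the RefSeq start to 30 after it in GRCm38.p6, with Birc5 on the plus strand at chr11:117848987-117849266, Ube2c on the plus strand at chr2:164769679-164769958, Cdc20 on the minus strand at chr4:118437314-118437593 and Ccnb2 on the minus strand at chr9:70421525-70421804. Capitals mark CCAAT and TTTGAA on either strand, and the stretch of 8 capitals in Ube2c is a CCAAT box overlapping another on the opposite strand.
Birc5: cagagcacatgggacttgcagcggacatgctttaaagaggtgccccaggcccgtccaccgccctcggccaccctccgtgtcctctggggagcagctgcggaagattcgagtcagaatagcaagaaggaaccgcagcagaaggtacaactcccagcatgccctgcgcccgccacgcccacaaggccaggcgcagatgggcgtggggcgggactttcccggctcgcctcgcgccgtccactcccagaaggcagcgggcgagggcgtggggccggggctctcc
Ube2c: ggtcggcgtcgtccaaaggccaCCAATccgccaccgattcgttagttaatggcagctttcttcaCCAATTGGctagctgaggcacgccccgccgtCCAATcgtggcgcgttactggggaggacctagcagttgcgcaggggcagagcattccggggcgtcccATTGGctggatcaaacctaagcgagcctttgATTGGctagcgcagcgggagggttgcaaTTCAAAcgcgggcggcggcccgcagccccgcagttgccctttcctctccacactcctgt
Cdc20: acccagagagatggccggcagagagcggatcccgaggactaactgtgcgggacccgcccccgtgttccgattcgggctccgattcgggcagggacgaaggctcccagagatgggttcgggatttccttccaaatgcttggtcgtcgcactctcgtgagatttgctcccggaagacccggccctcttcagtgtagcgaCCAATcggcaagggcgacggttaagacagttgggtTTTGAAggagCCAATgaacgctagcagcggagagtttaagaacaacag
Ccnb2: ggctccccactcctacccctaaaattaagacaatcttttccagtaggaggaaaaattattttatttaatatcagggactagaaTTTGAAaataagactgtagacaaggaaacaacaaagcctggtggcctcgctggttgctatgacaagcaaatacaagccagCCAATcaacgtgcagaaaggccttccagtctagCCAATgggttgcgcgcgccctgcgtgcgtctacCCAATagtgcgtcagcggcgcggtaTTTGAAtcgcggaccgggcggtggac
UBE2C is the ubiquitin-conjugating enzyme of the anaphase-promoting complex, and its gene was at 23.1 FPKM in KO OI and 6.93 FPKM in WT OI. Cdc20, the activator of that complex, was at 10.4 FPKM in KO OI and 3.61 FPKM in WT OI, and cyclin B2, Ccnb2, at 9.60 FPKM in KO OI and 3.25 FPKM in WT OI. Searched over 300 bases, both motifs occurred together in 24 of 38 measured mitosis genes with a RefSeq start region, or 63.2%. The share was 12.5% of 32 replication genes and 5.52% of all 8692 measured autosomal genes with one. TTTGAA, with or without CCAAT, was found in 27 mitosis and 5 replication genes.

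**Figure D4:**
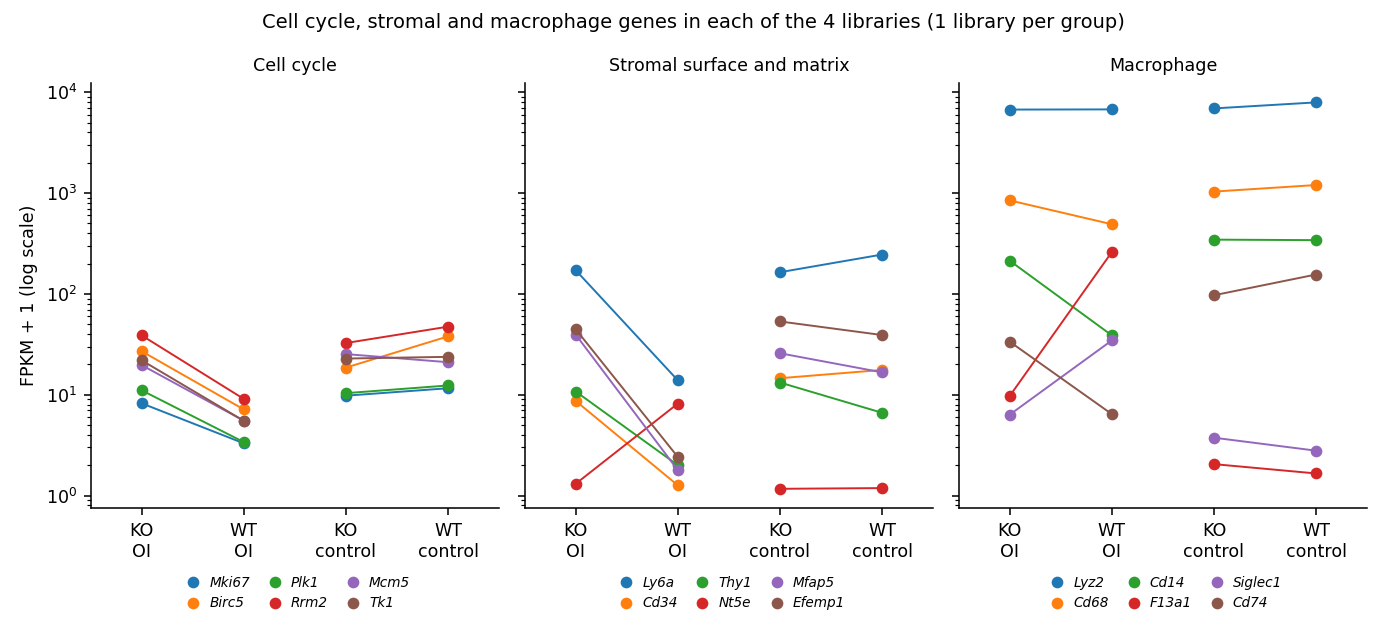
FPKM + 1 on a log axis for 18 genes in the 4 libraries, drawn as 1 point per library with lines joining KO to WT within a medium. The cell cycle genes, Ly6a, Cd34, Mfap5 and Efemp1 have their lowest point in WT OI (Ly6a at 12.9 FPKM), F13a1 and Nt5e their highest (F13a1 at 259.8 FPKM), and Lyz2 is nearly level.

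Of 13 adipogenic transcription factors, 2 were higher, Cebpb, at 201 FPKM in KO OI and 77.1 FPKM in WT OI, and Pparg, at 30.5 FPKM in KO OI and 13.2 FPKM in WT OI, and 1 was lower, Zbtb16 (-1.099). Cebpa (0.60) was within the rule. Of 26 genes for adipocyte products and fatty acid metabolism, 2 were higher and 2 lower, or 7.69% each way. These shares are near the 4.89% and 4.92% over all genes. The higher ones were the adipokine gene Adipoq (1.45) and the lipid carrier gene Fabp4, at 414 FPKM in KO OI and 171 FPKM in WT OI. The lower ones were the fatty acid transporter gene Cd36, at 33.3 FPKM in KO OI and 79.2 FPKM in WT OI, and the desaturase gene Scd2, at 26.7 FPKM in KO OI and 61.5 FPKM in WT OI. Plin1 and Cidec, which coat the lipid droplets of mature adipocytes, were each below 0.5 FPKM in both induced libraries. Fabp4, Pparg and Cd36 are also expressed by macrophages.

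Cholesterol genes split by role. Of 26 measured, 10 were higher and 2 lower, with a median of 0.69. The synthesis genes Fdps, at 86.8 FPKM in KO OI and 29.9 FPKM in WT OI, Sqle, at 42.0 FPKM in KO OI and 18.4 FPKM in WT OI, Mvk (1.37), Pmvk (1.29), Mvd (1.22) and Idi1 (1.02) were higher. So was Insig1, a feedback regulator of sterol synthesis, at 53.5 FPKM in KO OI and 21.5 FPKM in WT OI. The lower genes were the efflux pumps Abca1, at 5.69 FPKM in KO OI and 23.0 FPKM in WT OI, and Abcg1, at 8.16 FPKM in KO OI and 21.3 FPKM in WT OI. Hmgcs1 (0.94) and Fdft1 (0.99) lay just inside the rule. The named genes of synthesis were thus on the higher side and those of efflux on the lower. When WT control stood in for WT OI, 0 of 26 were higher and 0 lower.

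Retinoid genes had the largest share of higher members, 7 of 12, with 1 lower. Aldh1a1 and Aldh1a2 make retinoic acid from retinal. Aldh1a1 was at 6.81 FPKM in KO OI and 0.0967 FPKM in WT OI, against 2.37 FPKM in KO control and 12.4 FPKM in WT control. Aldh1a2 was at 28.1 FPKM in KO OI and 5.23 FPKM in WT OI, against 51.4 FPKM in KO control and 37.6 FPKM in WT control. Rarres1 (2.52), Rarres2 (1.15) and the retinal reductase Dhrs3, at 204 FPKM in KO OI and 99.6 FPKM in WT OI, were higher as well. Crabp2, which carries retinoic acid to its receptors, was lower, at 1.92 FPKM in KO OI and 7.15 FPKM in WT OI. The receptors Rara (-0.09) and Rarg (-0.42) were within the rule. Measured against WT control, 2 of 12 were higher and 1 lower.

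In the macrophage list a minority of members passed the size rule. Of 29 identity genes, 4 were higher and 1 lower, 21 ratios were above 0 and 8 below, and the median was 0.53. Lyz2 (lysozyme) was at 6734 FPKM in KO OI and 6763 FPKM in WT OI, and the macrophage antigen gene Adgre1 at 146 FPKM in KO OI and 173 FPKM in WT OI. Cd14, the lipopolysaccharide co-receptor, was at 212 FPKM in KO OI and 37.8 FPKM in WT OI and at 345 FPKM in KO control and 341 FPKM in WT control. Csf1r, the receptor for the macrophage growth factor, was at 472 FPKM in KO OI and 269 FPKM in WT OI, and Trem2, a lipid receptor, at 680.1 FPKM in KO OI and 309 FPKM in WT OI. Siglec1 (CD169) was the lower gene, at 5.36 FPKM in KO OI and 33.6 FPKM in WT OI and at 2.75 FPKM in KO control and 1.79 FPKM in WT control. Genes that define macrophages were therefore mostly on the higher side in KO OI, though not all of them. Those linked to glucocorticoids and interleukin 4 did not share a single direction, with 2 higher and 2 lower among 15. In that list the chemokine genes Pf4, at 264 FPKM in KO OI and 47.9 FPKM in WT OI, and Ccl8, at 11.2 FPKM in KO OI and 0.790 FPKM in WT OI, were higher, F13a1 and Clec10a, at 5.08 FPKM in KO OI and 13.9 FPKM in WT OI, were lower, and the mannose receptor gene Mrc1 (-0.95) was within the rule. Of 13 genes for antigen presentation, Cd74, the class II chaperone, at 32.5 FPKM in KO OI and 5.42 FPKM in WT OI and at 96.0 FPKM in KO control and 155 FPKM in WT control, and H2-Aa, at 3.04 FPKM in KO OI and 0.430 FPKM in WT OI and at 19.4 FPKM in KO control and 22.1 FPKM in WT control, were higher. KO OI thus lay between WT OI and the control libraries in these class II genes. Of 12 osteoclast genes 2 were higher, Tcirg1 (1.06) and Jdp2 (1.03). Ctsk (cathepsin K), at 29.7 FPKM in KO OI and 33.2 FPKM in WT OI, was nearly equal, and the fusion genes Ocstamp and Dcstamp were below 0.2 FPKM in both induced libraries.

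Chemokines were higher in 8 of 20 genes and lower in 1. Cxcl14 was at 22.5 FPKM in KO OI and 1.19 FPKM in WT OI, against 43.0 FPKM in KO control and 45.5 FPKM in WT control. Ccl2, a monocyte attractant, was at 44.8 FPKM in KO OI and 10.001 FPKM in WT OI, and its neighbour Ccl7 at 56.8 FPKM in KO OI and 14.2 FPKM in WT OI. Ccl3, at 87.0 FPKM in KO OI and 26.7 FPKM in WT OI, and Ccl4, at 44.2 FPKM in KO OI and 6.32 FPKM in WT OI were higher too. The lower gene was the receptor Ccr1, at 5.80 FPKM in KO OI and 14.3 FPKM in WT OI. Of 25 cytokine and pattern receptor genes, 4 were higher and 2 lower. Ptgs1, the constitutive cyclooxygenase, was at 43.0 FPKM in KO OI and 6.66 FPKM in WT OI, and Tnf at 12.4 FPKM in KO OI and 4.79 FPKM in WT OI. Il34, a ligand of CSF1R, was at 3.85 FPKM in KO OI and 19.3 FPKM in WT OI, and Lif at 0.9499 FPKM in KO OI and 3.70 FPKM in WT OI. Of 30 interferon-stimulated genes, 1 passed the rule, the immunoproteasome subunit Psmb8 (1.052), but 25 had ratios above 0, with a median of 0.46, or 0.29 with the trend on transcript length removed. Complement and coagulation genes were lower in 4 of 17, with the complement inhibitor Cd55 at 1.53 FPKM in KO OI and 4.73 FPKM in WT OI, and higher in 1, the receptor C5ar1, at 183 FPKM in KO OI and 88.6 FPKM in WT OI. Of 29 lysosomal genes, 2 were higher, Ctsz (1.003) and the regulator Tfeb (1.06), which is 6.90% beside 4.89% over all genes. Of 4 measured genes of other blood cells 1 was higher, the platelet and macrophage chemokine Pf4, and of 3 endothelial genes 1 was higher, Emcn (1.18), with 0 lower in either list. The summed macrophage markers given above differed between the same libraries, and their part in these results was not tested. Set beside WT control instead, 0 of 21 chemokine genes were higher and 2 lower.

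Targets of the glucocorticoid receptor were lower in 4 and higher in 3 of 17. Pdk4, a brake on pyruvate oxidation, was at 21.3 FPKM in KO OI and 69.8 FPKM in WT OI and at 16.4 FPKM in KO control and 15.7 FPKM in WT control. Errfi1 (-1.45), Angptl4 (-1.53) and Zbtb16 were lower as well. The metallothionein genes Mt1, at 1097 FPKM in KO OI and 283 FPKM in WT OI, and Mt2, at 791 FPKM in KO OI and 104 FPKM in WT OI, which bind zinc and respond to metals too, were higher. Fkbp5, Sgk1 (-0.97) and Glul (-0.58) were within the rule. Clock genes were lower in 3 of 16, the nuclear receptors Nr1d1, at 3.64 FPKM in KO OI and 10.5 FPKM in WT OI, and Nr1d2, at 3.07 FPKM in KO OI and 13.8 FPKM in WT OI, and the repressor Bhlhe40, at 11.3 FPKM in KO OI and 27.7 FPKM in WT OI. Per1 was nearly equal in the induced pair, at 15.1 FPKM in KO OI and 15.05 FPKM in WT OI, and Arntl (-0.26) was within the rule. Of 27 immediate early genes, Maff (1.37) and Ier3 (1.01) were higher and Egr1, at 8.16 FPKM in KO OI and 19.04 FPKM in WT OI, was lower. These are 7.41% and 3.70% of that list, beside 4.89% and 4.92% over all genes.

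Of 32 antioxidant and metal genes, 5 were higher, with Sod1, at 459 FPKM in KO OI and 196 FPKM in WT OI, and the glutathione transferases Gsta4 (2.08) and Gstt1 (1.71) beside the metallothioneins. The lower ones were Gsta3, at 3.45 FPKM in KO OI and 13.8 FPKM in WT OI, and the zinc and iron transporter Slc39a14 (-1.13). Of 34 genes for protein folding, 1 was higher, the small heat shock protein Cryab, at 230.3 FPKM in KO OI and 53.2 FPKM in WT OI. That is 2.94% of the folding list, beside 4.89% over all genes. Of 31 glycolysis and hypoxia genes, 3 were higher and 2 lower, or 9.68% and 6.45%, beside 4.89% and 4.92% over all genes. The median of this list was 0.06, with 17 ratios above 0 and 14 below. The vasodilator peptide gene Adm was at 43.9 FPKM in KO OI and 13.6 FPKM in WT OI. Hif1a, the oxygen-sensing factor, was at 26.5 FPKM in KO OI and 88.6 FPKM in WT OI. Ribosomal protein genes had 0 of 40 past the rule and 37 above 0, with a median of 0.43. In the respiratory chain 1 of 38 was higher, Ndufb7 (1.12), and 0 lower, 32 were above 0 and the median was 0.39. With the trend on transcript length removed, these medians were 0.03 and 0.09, while those of the mitosis and replication lists stayed at 0.91 and 0.93. The H3K9 list and the list of Polycomb, deacetylase and DNA methylation genes had no called gene. The median was -0.25 over 18 genes for H3K9 methylation, demethylation and reading, of which 16 were below 0, and -0.13 over 33 Polycomb, deacetylase and DNA methylation genes. With the length trend removed these medians were -0.09 and 0.15, a change of sign for the Polycomb list, in which 1 gene was then higher.

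Transcript length ran with the ratios across genes. Over 10968 genes with a GENCODE M21 transcript, the log2 ratio of the induced pair had a Spearman rho of -0.44 with transcript length and 0.40 with GC content, while the ratio of the control pair had 0.52 and -0.41. The median length was 2191 bases for higher genes and 4724 bases for lower genes. These are descriptions across genes, which are not independent of each other. The induced and control ratios, from separate libraries, had a rho of -0.54 over the 11371 genes.

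Of the 1115 called under induction, 21 had the same call in the control pair, 16 higher and 5 lower, and 54 had the opposite call. The 16 are 2.88% of the genes higher in KO OI, beside 0.655% of all genes higher in KO control, and the 5 are 0.894% of the genes lower in KO OI, beside 0.858% of all genes lower in KO control. Of the 54, 35 were among the 556 genes higher in KO OI, while 0.858% of all genes were lower in KO control. The other 19 were among the 559 genes lower in KO OI, while 0.655% of all genes were higher in KO control. Among the genes higher in both, Col2a1 had log2 ratios of 3.496 in the induced and 1.90 in the control pair, and Dcn (decorin) of 2.05 and 2.77. Pla1a had 3.71 and 1.98, and Cygb, the globin of stromal cells, 2.79 and 1.46. Also higher in both were F2r, the thrombin receptor (1.92 and 1.24), and Cd5l, a protein secreted by macrophages (2.58 and 1.17). All 5 genes lower in both were named, Il34 (-2.06 and -1.12), Pcolce2 (-1.63 and -1.32), Crabp2 (-1.48 and -1.11), Akr1b3 (-1.36 and -1.28) and Podnl1 (-1.03 and -1.40). Cygb, F2r, Cd5l, Akr1b3 and Podnl1 were chosen after their values had been seen.

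**Figure D5:**
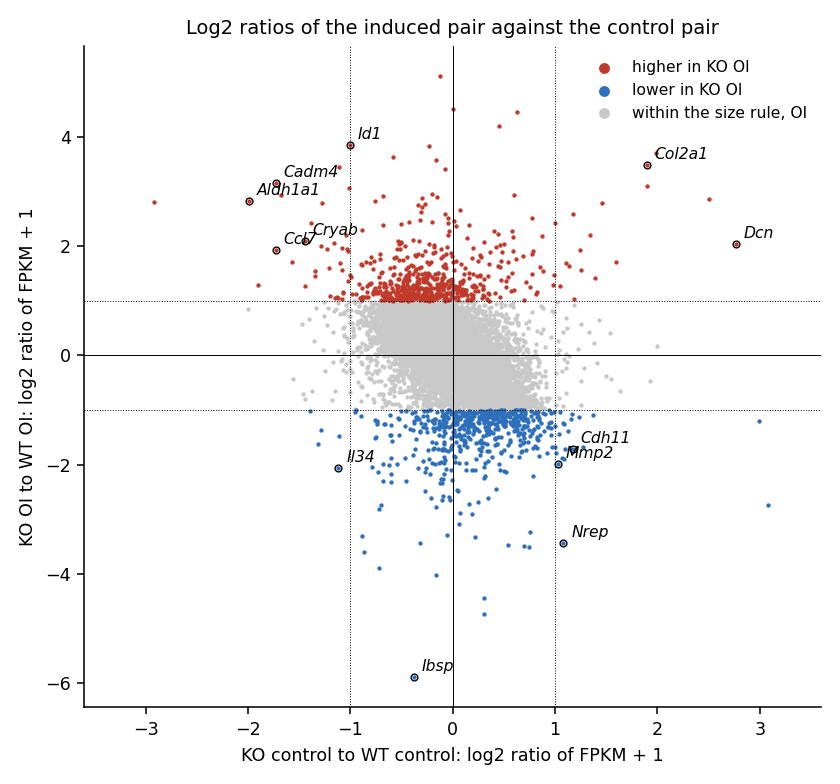
Each point is a measured autosomal gene, placed by its log2 ratio of KO control to WT control (x axis) and of KO OI to WT OI (y axis). Red and blue mark the genes higher and lower in KO OI, dotted lines mark the size rule in each pair, and circles mark named genes, of which Col2a1 and Dcn are high in both pairs and Id1, at 3.85 and -1.003, is not.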

How the data were processed

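Polyadenylated RNA of 4 libraries, 1 per group, was sequenced, so no test was possible and none was run. The authors deposited FPKM per gene in a table for each medium, made with TopHat and Cufflinks on mm9 per the submitters' processing notes, with versions and parameters not given in the sources used here. Groups follow the sample labels. Of 24346 rows per table, 27 with date-like symbols and 1283 of small RNAs were dropped (prefix Scar read as Scarna, since Scara and Scarb are protein genes). Chromosomes came from RefSeq GRCm38.p6 by symbol or synonym. A log2 ratio of FPKM + 1 was taken with Python 3.11.15, numpy 2.4.6 and pandas 2.3.3, and matplotlib 3.10.9 drew the figures. The ratio step was checked on simulated data. Read totals are unknown. The step of the lowest values gave KO OI 1.21, 1.30 or 1.27 times the depth of WT OI with bins of 0.02, 0.05 or 0.1 log2 units, too diffuse to use, so no interval for counting error is given.

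The members, the gene lists and the rules for naming genes were chosen with earlier results of these data known. Named genes are the Kdm4 genes, the checks of the libraries, the 20 largest ratios each way with at least 5 FPKM in the higher library, up to 8 called members each way and 2 abundant others per list, and cell type markers, and some genes so picked are not reported here. All 46 lists were run, and the counts of those that had no or few called genes are given with the rest. The lists followed through every alternative are 12: 8 were chosen at first (bone matrix, collagen, BMP targets, mitosis, replication, lipid, glucocorticoid-associated macrophage and class II genes), and osteoblast factors, adhesion, cholesterol and chemokine genes were added after their counts were seen, because many members had passed. Motifs were searched in 4 lists. Alternatives were pseudocounts of 0.1 and 5, a filter of 5 FPKM and none, median-ratio scaling, a threshold of 1.5, WT control in place of WT OI, and, added after the data were seen, removal of the length trend.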

Additional observations from a re-analysis of the deposited data

Results flagged for a closer look

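Of the 54 genes called in opposite directions in the 2 media, 18 belong to the lists or to the largest ratios. The ratios of the 2 pairs had a Spearman rho of -0.54 over all 11371 genes. Opposite signs were therefore not particular to these genes. With 1 library a side, the difference between media was not tested. Higher in KO OI and lower in KO control were Id1 (log2 ratio 3.85 under induction and -1.003 in control medium), Sap25 (3.45 and -1.11), Cadm4 (3.16 and -1.73), Pmp2 (2.93 and -1.68) and Birc5 (1.92 and -1.03). The uncertain near copy Atp6v0c-ps2 had 3.06 and -1.01. Among secreted signals, Ccl2 had 2.06 and -1.16, and Ccl7 1.93 and -1.73. The aldehyde dehydrogenase genes Aldh1a1 (2.83 and -1.99) and Aldh1a7 (1.46 and -1.34) and the chaperone gene Cryab (2.09 and -1.45) had this pattern. So did the progenitor and perivascular genes Ngfr (1.61 and -1.21), Mcam (1.08 and -1.20) and Nes (1.04 and -1.15). Lower in KO OI and higher in KO control were Nrep (-3.44 and 1.08), Mmp2 (-1.99 and 1.02), Cdh11 (-1.71 and 1.17) and Bmp5 (-1.17 and 1.16).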

How the results depend on the processing

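No paired analysis was possible because each group held 1 library and the result comes from no test. With 1 library a side, no value has an error, and the label, the animal and the library cannot be told apart. The 556 higher and 559 lower genes were 113 and 95 with WT control in place of WT OI, 232 and 187 with a pseudocount of 5 FPKM, and 172 and 175 with a threshold of 1.5. With a pseudocount of 0.1 FPKM 809 genes were higher and 925 lower. For 12 lists followed in detail, WT control in place of WT OI left 0 lower osteoblast factors and 0 lower bone matrix genes, 2 lower adhesion genes, 1 higher BMP target, 5 higher glucocorticoid-associated macrophage genes, and 0 higher lipid, cholesterol, class II, chemokine, replication or mitosis genes. A pseudocount of 5 left 2 lower osteoblast factors, 9 lower adhesion genes, 1 higher lipid and 1 higher class II gene, 7 higher replication and 4 higher mitosis genes. A threshold of 1.5 left 2 lower osteoblast factors, 9 lower adhesion genes, 0 higher lipid, 1 higher cholesterol, 1 higher class II, 4 higher replication and 3 higher mitosis genes. A filter of 5 FPKM left 4 lower osteoblast factors and 1 higher gene each for lipid and class II, and removal of the length trend, added after the data were seen, left 4 lower osteoblast factors. The cause of these changes was not tested. Of the medians of the 46 lists, 27 changed sign with WT control in place of WT OI, 6 with the length trend removed and at most 2 under the others. Among the other 34 lists, the count moved by more than 1.5 times in 28 with WT control, 22 with the threshold of 1.5 and 18 with the pseudocount of 5.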
